A study of Solanum lycopersicum with 8 samples.

Results

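The loops of 15 to 40 kb are the second-shortest class of contacts in the tomato inflorescence Hi-C list, and they were selected on their listed span, the distance between the midpoints of both anchor bins. They numbered 2581 of the 9573 loops listed, or 27.0%. The other loops were 3916 of 10 kb, the shortest span listed, and 3076 of 45 kb and more, up to 1000 kb. In Hi-C, chromatin is cross-linked, neighbouring DNA ends are ligated to each other and the joined ends are sequenced. It was run here on inflorescences of the anantha-e1546 mutant in the M82 cultivar background, in 2 replicates from separate plants. All Hi-C samples carried the mutation, so no comparison with wild-type inflorescences was possible. The 6 leaf ATAC-seq samples of the M82 genotype in the same series were not used here, since their list is on the SL4.0 assembly and the loop list names none.

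ANANTHA encodes an F-box protein that tomato needs to turn inflorescence meristems into floral meristems. Without it the inflorescence keeps producing meristems and becomes a cauliflower-like mass, which is why this tissue is rich in meristematic cells. A chromatin loop in such a list is a pair of bins that contact each other more often than their distance alone would give. Plants have no known homolog of CTCF, the protein that anchors many loops in mammals, and short plant loops are often reported between neighbouring genes or between a gene and nearby regulatory DNA. Tomato chromosomes have gene-rich distal arms and a large pericentromeric interior of repeat-rich heterochromatin.

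The list holds 1 combined set of loops with no contact count, no score and no value per replicate. The depth and the strength of a loop are therefore unknown, and the spread between the 2 plants could not be computed. Errors below are counting intervals (95%, Wilson) or spreads over the 12 chromosomes. Both treat parts of 1 list as if they were independent and do not measure differences between plants. Likewise, the p-values below measure how uniform a difference was over the chromosomes of this list, not biological replication. No assembly is named for the list, so positions are given as listed and no gene or sequence was assigned to them.

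Within the range, the shorter spans were almost equally common and the count dropped at the upper end. There were 492 loops of 15 kb, 470 of 20 kb, 495 of 25 kb, 426 of 30 kb, 408 of 35 kb and 290 of 40 kb. The first 3 spans thus held 1457 loops and the last 3 held 1124. The mean span of the class was 26.3 kb and the median 25 kb. Just outside the limits the list holds the 3916 loops of 10 kb below and 235 loops of 45 kb above. The lower limit therefore lies at a step of 7.96-fold between 10 and 15 kb, whereas the upper limit cuts a gradual decline, with 1.23 times as many loops of 40 kb as of 45 kb. These counts describe the choice of members and carry no test.

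**Figure D1:**
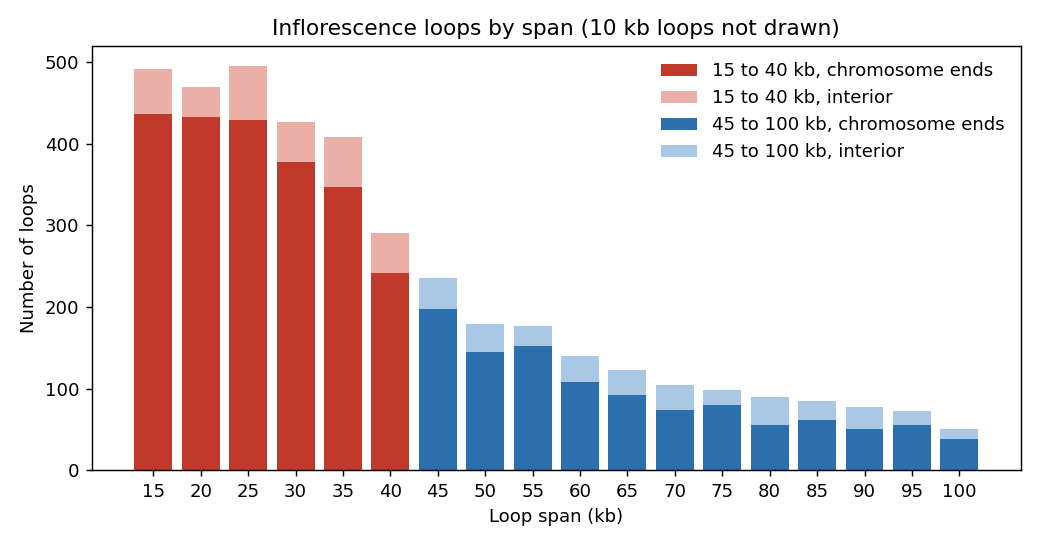
Number of inflorescence loops at each listed span from 15 to 100 kb, as stacked bars of loops in chromosome ends (dark) and interior (light); red bars are the 15 to 40 kb class and blue bars longer loops. The counts stay between 470 and 495 from 15 to 25 kb and reach 290 at 40 kb; the 3916 loops of 10 kb are not drawn.

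All 12 chromosomes carried such loops. Chromosome 1 had the most, with 362, followed by chromosome 2 with 321. Chromosomes 3 and 4 had 272 each, chromosome 6 had 224, chromosome 7 had 213 and chromosome 8 had 206. The lowest counts were 168 on chromosome 9, 163 on chromosome 5, 146 on chromosome 11, 123 on chromosome 12 and 111 on chromosome 10. Per Mb of extent, which runs from position 0 to the last anchor bin listed on a chromosome, the mean was 3.26 ± 1.22 loops (SD over n = 12). The highest density was 5.83 loops per Mb, on chromosome 2, and the lowest 1.68 loops per Mb, on chromosome 10.

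The mix of spans differed little between chromosomes. The mean span within the class lay between 25.7 kb on chromosome 2 and 27.8 kb on chromosome 5. On chromosome 1 the counts were 69 loops of 15 kb, 77 of 20 kb, 71 of 25 kb, 55 of 30 kb, 47 of 35 kb and 43 of 40 kb. On chromosome 5 they were 20 loops of 15 kb, 27 of 20 kb, 33 of 25 kb, 30 of 30 kb, 30 of 35 kb and 23 of 40 kb. Chromosome 5 was the exception to a general order: on the other 11 chromosomes, loops of 15 kb outnumbered those of 40 kb. On chromosome 9 the commonest span was 35 kb, with 36 loops. No chromosome had 30 or 40 kb as its commonest span.

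Counts of the class went with those of the 10 kb loops from chromosome to chromosome. For every 100 loops of 10 kb there were between 51.2 loops of 15 to 40 kb, on chromosome 10, and 78.6, on chromosome 4. Pearson r was 0.96 and Spearman rho 0.97 between the counts over the 12 chromosomes. Against longer loops the range was wider, between 52.2 per 100 on chromosome 9 and 118 per 100 on chromosome 1, with r = 0.64 and rho = 0.58. The class outnumbered the longer loops on 4 chromosomes, namely 1, 2, 4 and 6. All these counts come from 1 list and share its depth and the length of each chromosome, so the correlations are descriptive.

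Along the chromosomes the loops of 15 to 40 kb lay mainly in the outer arms. The first and last 20% of the extents, called the chromosome ends, held 2263 of them, or 87.7% (95% interval 86.4 to 88.9%), in 40% of the extent. The interior, the middle 60%, held 318. Pooled density was 7.06 loops per Mb in the ends and 0.661 loops per Mb in the interior. Over chromosomes the mean log2 ratio of the densities was 4.75 (95% interval 3.53 to 5.97), or 26.9-fold. All 12 chromosomes had more loops per Mb in the ends. By an exact permutation test that flips the signs of the 12 chromosome values (two-sided), p was 0.000488, the smallest that 4096 sign patterns can give, and 0.000977 after Benjamini-Hochberg adjustment over 4 tests. A fold of this size rests on few loops in the denominator, since 7 chromosomes had fewer than 8 interior members and chromosome 12 had 1.

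The interior members were themselves unevenly spread. Chromosome 2 held 138 of the 318, chromosome 6 held 58, chromosome 3 held 43 and chromosome 1 held 39, together 278 or 87.4%. On the other 8 chromosomes, 40 of 1402 loops were interior, and 97.1% lay in the ends (95% interval 96.1 to 97.9%). Most interior members adjoined the last 20%. With 10 equal parts per extent, part 1 at its start, parts 7 and 8 held 282 of them and parts 3 to 6 only 36. Chromosome 2 carries the ribosomal DNA array on its short arm, and its last 20% held 181 loops of the class, against 2 in its first 20%.

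Most chromosomes were also lopsided. Over all chromosomes the last 20% held 1615 members and the first 20% held 648. The last 20% had more on 9 chromosomes. Chromosome 1, for example, had 276 there and 47 in its first 20%, and chromosome 4 had 191 and 71. The order was opposite on chromosome 5, with 67 in the last 20% and 92 in the first, on chromosome 11, with 67 and 73, and on chromosome 12, with 55 and 67. Part 10 alone held 1061 loops, or 41.1% of the class, followed by part 1 with 604 and part 9 with 554. Part 2, although counted with the ends, held 44.

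In windows of 1 Mb the class was absent from most of the genome and dense in a small part of it. Of 796 full windows, 490 (61.6%) held no loop of the class, and the median of the other 306 was 8 loops. Only 75 windows (9.42%) were enough to hold 50% of the members found in full windows. In 129 windows there were at least 10, and these held 1855 loops, or 71.9% of the class. They lay on all 12 chromosomes, from 20 on chromosome 1 and 18 on chromosome 2 to 3 on chromosome 10.

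The dense windows often adjoined each other. The longest runs of windows with at least 10 members were 17 windows each, from 38 to 55 Mb of chromosome 2 with 269 loops and from 75 to 92 Mb of chromosome 1 with 264 loops. Runs of 8 windows occurred from 58 to 66 Mb of chromosomes 4, 3 and 8, with 162, 130 and 109 loops in that order. In the interior, short runs from 48 to 50 Mb of chromosome 3 and from 38 to 40 Mb of chromosome 6 held 25 and 23 loops. Single dense windows lay there at 72 to 73 Mb of chromosome 1 and 35 to 36 Mb of chromosome 2, with 14 and 11 loops. The long run of chromosome 2 also began in the interior, where its windows from 38 to 44 Mb lay. A run from 41 to 48 Mb of chromosome 6, with 93 loops, began there too. At the other extreme, no midpoint of the class lay within a stretch of 42.8 Mb on chromosome 12, and the shortest such longest stretch of any chromosome was 10.8 Mb, on chromosome 2.

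**Figure D2:**
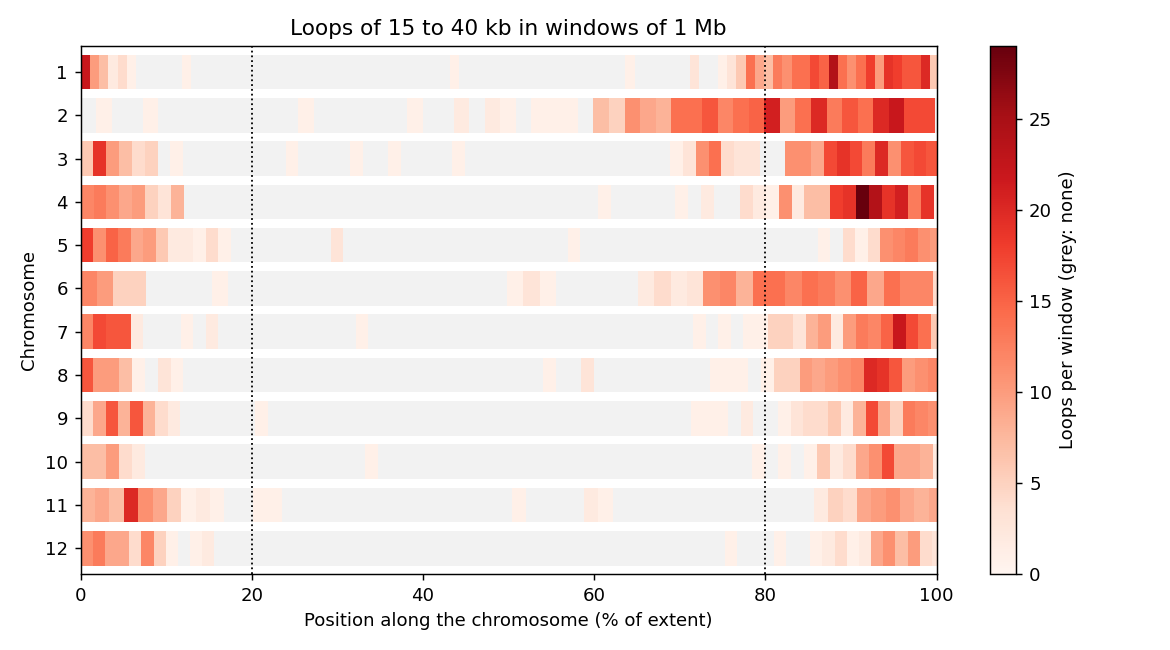
Loops of 15 to 40 kb per 1 Mb window along each of the 12 chromosomes, with position as percent of the extent (dotted lines at 20% and 80%); darker red is more loops, up to 29, and grey windows hold none. Most dark windows lie in the outer arms, but chromosomes 1, 2, 3 and 6 also have windows of at least 10 loops between the dotted lines. The first 20% of chromosome 2 held 2 loops.

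The window with the most members was at 60 to 61 Mb of chromosome 4, with 29. It was followed by 81 to 82 Mb of chromosome 1 and 61 to 62 Mb of chromosome 4, with 24 each, and by 0 to 1 Mb of chromosome 1, 52 to 53 Mb of chromosome 2 and 65 to 66 Mb of chromosome 7, with 22 each. In the first of these windows the class outnumbered both the 25 loops of 10 kb and the 7 longer loops. Such windows were a minority, since in 24 of the 129 dense windows the class exceeded the 10 kb loops. It exceeded the longer loops in 116 of them. All these windows were chosen for their many members, which favours the class in such counts in advance, so no conclusion is drawn from them.

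The densest window, chosen for its many members, shows a crowded layout at close range and does not stand for the class as a whole. Its 29 members comprised 5 loops of 15 kb, 7 of 20 kb, 5 of 25 kb, 4 of 30 kb, 5 of 35 kb and 3 of 40 kb. They used 51 distinct anchor bins, of which 7 anchored more than 1 member of the window. Together, from anchor to anchor, they covered 745 kb. A row of 3 loops ran end to end: a 30 kb loop between the bins 60505001 to 60510000 and 60535001 to 60540000, a 30 kb loop from there to 60565001 to 60570000, and a 35 kb loop from there to 60600001 to 60605000. Within the last of these sat a 15 kb loop, between 60580001 to 60585000 and 60595001 to 60600000. In all, 11 of the 29 stood end to end with another member, 4 lay inside another member and 13 enclosed a 10 kb loop. Over the whole class these 3 shares were 14.5%, 12.3% and 29.6%, and the class covered 8.52% of the extents.

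**Figure D3:**
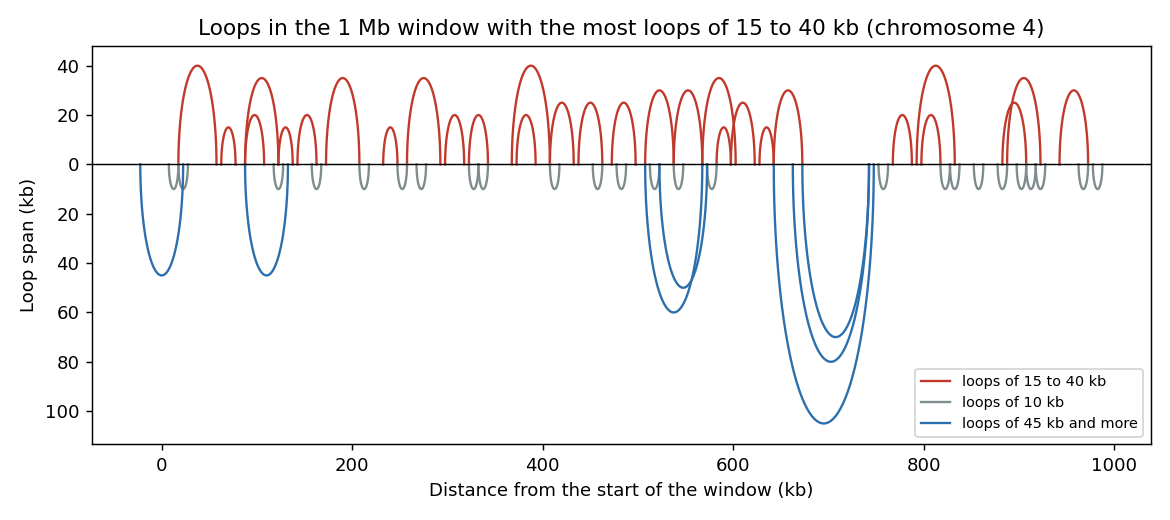
Loops in the 1 Mb window of chromosome 4 with the most members, drawn as arcs whose height is the span in kb, against distance from the start of the window in kb; the 29 loops of 15 to 40 kb are above the line, and 25 loops of 10 kb (grey) and 7 longer loops (blue) below it. The red arcs follow each other along most of the window, and 11 of the 29 stand end to end with another.

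The position of the class was close to that of the 10 kb loops and unlike that of longer loops. In the ends lay 87.7% of the class, 88.2% of the 10 kb loops (95% interval 87.2 to 89.2%) and 63.9% of the loops of 45 kb and more (62.2 to 65.6%). Over chromosomes, the share of the class minus that of the 10 kb loops averaged −0.605 percentage points (95% interval −2.24 to 1.03; two-sided exact permutation p by sign flips = 0.504, adjusted 0.673; higher on 7 of 12 chromosomes). The interval limits the mean difference to a few percentage points either way, and the p does not show that the shares are equal. The largest gap was on chromosome 6, with 74.1% of the class and 81.4% of the 10 kb loops.

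With ends of 10% on each side in place of 20%, the class fell below the 10 kb loops by a mean of −2.18 percentage points (95% interval −3.78 to −0.578; exact permutation p = 0.0151). The answer therefore depends on how far out the boundary is set. In part 10 there were 1061 loops of the class and 1701 of 10 kb, or 62.4 per 100. In part 1 there were 604 and 881, or 68.6 per 100, and in part 9 there were 554 and 805, or 68.8 per 100. Among these parts the lower ratio was thus that of part 10 and not of both outermost parts. Parts 3, 4 and 5 had lower ratios still, at 61.5, 29.4 and 40.0 per 100, but from only 8, 5 and 6 members. Parts 2, 6, 7 and 8 had higher ratios than part 10.

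Against longer loops the difference held on every chromosome. The share in the ends was higher for the class by a mean of 25.7 percentage points (95% interval 21.8 to 29.5; two-sided exact permutation p by sign flips = 0.000488, the smallest possible; adjusted 0.000977; higher on all 12). The gap was largest on chromosome 11, at 95.9% of the class and 59.6% of longer loops. The smallest gap was on chromosome 2, at 57.0% of the class and 41.4% of longer loops. Set against loops of 45 to 200 kb alone, the mean difference was 15.8 percentage points, with the class again higher on 12 of 12 chromosomes.

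**Figure D4:**
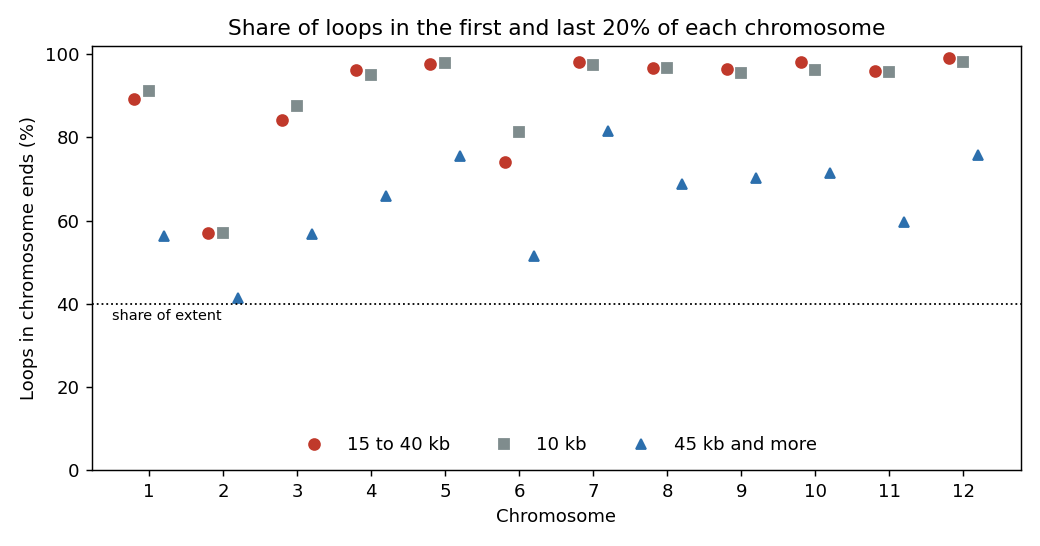
Percent of loops in the first and last 20% of each chromosome for the 15 to 40 kb class (red circles), 10 kb loops (grey squares) and loops of 45 kb and more (blue triangles); the dotted line is the 40% of the extent that the ends occupy. The class lies next to the 10 kb loops and above the longer loops on all 12 chromosomes, with the lowest class value, 57.0%, on chromosome 2.

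Window by window the same resemblance appeared. Over the 596 full windows with any loop, the count of the class correlated with that of 10 kb loops (Pearson r = 0.91, Spearman rho = 0.89) and less with that of longer loops (r = 0.23, rho = 0.42). Windows share the list, its depth and the mappability of their sequence, so these are descriptions without a test. The class occurred in 22 of the 442 full windows that had no 10 kb loop. It was missing from 70 windows that had one and from 280 that had a longer loop. Longer loops occupied more windows, since only 219 of the 796 full windows had none. The 70 and the 280 are therefore not counts out of equal totals.

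Spans inside the class bore a weak relation to position. Pooled over chromosomes, the share in the ends was 88.6% at 15 kb, 92.1% at 20 kb, 86.7% at 25 kb, 88.5% at 30 kb, 85.0% at 35 kb and 83.1% at 40 kb. Beyond the class it was 82.5% at 45 to 60 kb, 72.4% at 65 to 100 kb, 63.3% above 100 and up to 200 kb and 43.9% above 200 kb. The intervals of neighbouring spans within the class overlapped throughout. Those of spans further apart did not always, since the interval at 20 kb (89.3 to 94.2%) lay above those at 35 kb (81.3 to 88.2%) and 40 kb. The 40 kb loops (95% interval 78.4 to 87.0%) resembled those of 45 to 60 kb (79.6 to 85.1%), so the upper limit of the class marks no break in position.

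**Figure D5:**
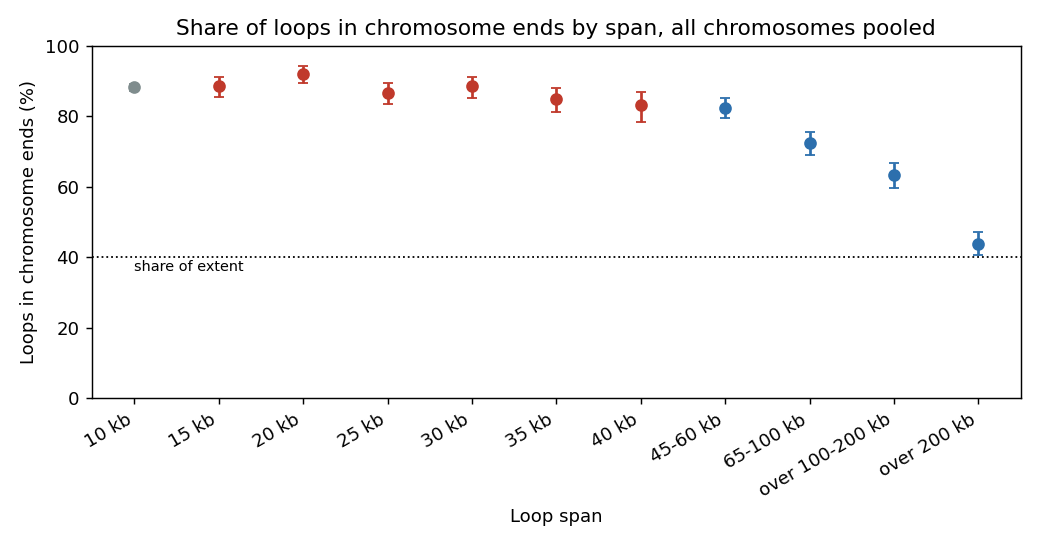
Percent of loops in chromosome ends by span, all chromosomes pooled, with 95% Wilson intervals that cover counting error only; grey is 10 kb, red the 15 to 40 kb class, blue longer loops, and the dotted line the 40% of the extent. Values stay between 83.1% and 92.1% within the class and reach 43.9% above 200 kb.

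Among members, loops in the ends averaged 26.1 kb and those in the interior 27.7 kb. Since the span chose the members, these values are given as a description. A sign-flip test of the difference counts among the 4 adjusted together, but its p is not given. The mean difference over chromosomes was −0.653 kb, with shorter loops in the ends on 8 of 12 chromosomes. Several interior means rest on a few loops, such as the single 15 kb loop of chromosome 12. With ends of 10% on each side, the mean difference over chromosomes was −2.11 kb. Pooled, parts 1 and 10 held 1665 members with a mean span of 25.9 kb, and the 916 members of parts 2 to 9 averaged 27.0 kb. The outermost parts differed from each other, with means of 25.6 kb in part 10 and 26.4 kb in part 1, against 26.5 kb in part 9. In part 10 every span had fewer loops than the one before, with 222 of 15 kb, 218 of 20 kb, 195 of 25 kb, 181 of 30 kb, 137 of 35 kb and 108 of 40 kb. Part 1 had no such order, with 109 of 15 kb, 111 of 20 kb, 113 of 25 kb, 111 of 30 kb, 95 of 35 kb and 65 of 40 kb.

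Most anchors of the class served a single member. The 2581 loops used 4742 distinct 5 kb bins, of which 400 (8.44%, 95% interval 7.68 to 9.26%) anchored more than 1 loop of the class. The share was 5.68% of 7411 bins among 10 kb loops and 12.2% of 5368 bins among longer loops. It depends on how many loops a class has and how tightly they lie, so the values are set side by side without a test. The intervals overlapped between both parts of the chromosome, at 8.50% of bins for members in the ends (95% interval 7.69 to 9.38%) and 8.01% for those in the interior (6.07 to 10.5%).

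Of the 400 shared bins, 188 joined a member on each side and so stood between loops, while the rest sent their loops the same way. Bins of the class were also used by other loops. In all, 1005 (21.2%) anchored a 10 kb loop as well, which is 13.6% of the bins of the 10 kb loops. A longer loop was anchored by 491 (10.4%), which is 9.15% of the bins of longer loops. A member of each of the 3 classes met in 108 bins. For 3078 bins (64.9%) the member was the only loop of any span.

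No bin anchored more than 3 loops of the class, and 20 bins reached 3, on 9 chromosomes. Those on chromosome 1 were at 925001 to 930000, 3005001 to 3010000, 79100001 to 79105000, 87100001 to 87105000, 90450001 to 90455000 and 90490001 to 90495000. On chromosome 2 they were at 43075001 to 43080000, 44485001 to 44490000, 48965001 to 48970000 and 52225001 to 52230000. Chromosome 4 had such bins at 59050001 to 59055000, 59130001 to 59135000 and 65750001 to 65755000, and chromosome 7 at 945001 to 950000 and 65955001 to 65960000. One each lay at 49435001 to 49440000 of chromosome 3, 2335001 to 2340000 of chromosome 5, 62780001 to 62785000 of chromosome 8, 3330001 to 3335000 of chromosome 11 and 5885001 to 5890000 of chromosome 12.

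At 16 of these 20 bins the loops went both ways, and at 4 all went the same way. The first bin of chromosome 1 and the last of chromosome 2 each sent loops of 20, 30 and 40 kb to the right, a fan with equal steps. The bin at 59050001 to 59055000 of chromosome 4 received loops of 15, 25 and 40 kb from the left, and the later bin of chromosome 7 received loops of 15, 30 and 40 kb. Only 2 of the 20 also anchored a 10 kb loop and 5 a longer loop, so none had more than 4 loops of any span.

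Some loops of the class stood side by side, the right anchor bin of one being the left anchor bin of the next. This held for 373 members (14.5%, 95% interval 13.1 to 15.9%), in 204 pairs. With a 10 kb loop, 597 members (23.1%) stood end to end, and with a longer loop 212 (8.21%). Within their own class, 20.0% of the 10 kb loops and 9.59% of the longer loops did so. Such shares depend on how many loops a class has and how tightly they lie, so they are set side by side without a test. The share of members side by side with another member varied little with span, from 12.4% at 30 kb to 16.6% at 40 kb.

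Exact adjacency was about as common as near adjacency, and crossing by 5 to 15 kb was rarer than either. Counted by the distance from the right anchor of one member to the left anchor of the next, there were 204 pairs at 0 kb and 205 at 5 kb. Between 10 and 50 kb the counts lay between 142 and 176 pairs per 5 kb step. When the loops instead crossed by 5, 10 or 15 kb, there were 77, 61 and 38 pairs. Over overlaps of any length, 253 pairs crossed, which involved 409 members (15.8%), so crossing as a whole was not the rarer arrangement. Members of 30 to 40 kb, which are long enough that such pairs differ by several bins, gave 12, 12 and 6 pairs for those overlaps, against 40 pairs at 0 kb and 35 at 5 kb. Longer loops gave 73 pairs crossing by 5 kb and 175 at 0 kb, but 2124 crossing pairs over overlaps of any length, with 48.9% of them crossing another longer loop. Whether removal of nearby calls from the list bears on these counts was not tested.

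Chains longer than a pair were few. There were 161 chains of 2 loops, 13 of 3 loops and 3 of 4 loops, counting the longest chain from each starting loop. The chains of 4 ran from 51075001 to 51165000 on chromosome 2, with spans of 20, 25, 20 and 20 kb, from 65220001 to 65310000 on chromosome 3, with 20, 25, 15 and 25 kb, and from 1365001 to 1495000 on chromosome 6, with 35, 25, 30 and 35 kb.

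Most nested pairs within the class shared an anchor bin, which the list itself partly imposes. Of the members, 318 (12.3%, 95% interval 11.1 to 13.6%) lay inside another member, with anchors inside or on the outer anchors, and 311 enclosed one. Of the 338 nested pairs, 236 (69.8%) shared an anchor bin, 115 at the left and 121 at the right, and the others lay strictly inside. Among longer loops, where far more combinations fit, 777 of 3252 nested pairs (23.9%) shared an anchor bin. The share inside another member was 26.4% at 15 kb, 19.4% at 20 kb, 14.7% at 25 kb and 5.63% at 30 kb. Members of 40 kb could not lie inside another member, since 40 kb is the longest span of the class. Those of 35 kb could not either, since no listed pair of loops lay within 1 bin at both ends.

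Members also enclosed 10 kb loops and lay inside longer loops, although such nesting depends on span by construction. From anchor to anchor, longer loops covered 36.7% of the extents and 10 kb loops 7.07%. The counts were not tested against this coverage. A 10 kb loop lay inside 765 members (29.6%). The share was 0% at 15 kb, where a 10 kb loop would lie within 1 bin at both ends, and between 22.8% at 20 kb and 43.4% at 35 kb for the other spans. Conversely, 726 members (28.1%) lay inside a longer loop, which held for 27.1% of members in the ends (95% interval 25.3 to 29.0%) and 35.5% in the interior (30.5 to 40.9%). The interior had 1109 longer loops beside its 318 members, and the ends had 1967 beside 2263; the part of this in the difference was not tested. Both held for 192 members (7.44%), giving a 10 kb loop inside a member inside a longer loop.

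Complete subdivision was uncommon. Of the 470 loops of 20 kb, 66 had a listed 10 kb loop over their left part and 61 over their right part, and 20 had both, so that all 3 contacts among the 3 bins were listed. Over all members, 47 (1.82%) were split in this way by a middle bin joined to both anchors, and 38 of the longer loops were (1.24%). Loops of 15 kb could not be split so, since 10 kb is the shortest span listed. Among the 2089 members of 20 to 40 kb the share was 2.25%. In all, 1868 members (72.4%) overlapped some loop of the list, against 43.6% of the 10 kb loops and 88.5% of the longer loops. The 434 members (16.8%) with neither an overlap nor a shared anchor were the isolated ones, against 36.1% of the 10 kb loops and 10.0% of the longer loops. Shares of overlapping and isolated loops depend on span by construction, so their order over the classes is a description. Loops of 10 kb could not overlap each other, since no listed pair lay within 1 bin at both ends. From anchor to anchor the class covered 68.3 Mb, or 8.52% of the extents, of which 16.2% was covered more than once.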

How the data were processed

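The loop list of the inflorescence Hi-C was deposited as 1 table for the whole series: chromosome and both anchor midpoints in bp, in bins of 5 kb. Its name gives FitHiC at that resolution, and HiC-Pro 3.1.0 is listed per the submitters' processing notes. For caller settings, merging of nearby calls, handling of the 2 replicates and the assembly, the sources used here give nothing. Read depth is unknown. The deposited leaf list was not used.

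Span is the difference of both midpoints. A loop belongs to the window or part that holds its midpoint. Shares per chromosome were compared by exact two-sided sign-flip permutation over 12 chromosomes, with Benjamini-Hochberg adjustment over 4 tests; intervals of such means are t-based (95%). The calculation was checked on simulated data. Python 3.11.15, numpy 2.4.6, pandas 2.3.3 and scipy 1.17.1 were used. Positions named are the 5 windows with the most members, with a sixth that tied for the last place, all bins with the most members and the 3 longest chains. The members, tests and measures were chosen with earlier results of these data known. The difference in span was 1 of the 4 tests adjusted together, and its p is not given because span chose the members. The gap counts, the subdivision counts and the layout of the densest window were chosen after their values were seen.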

Additional observations from a re-analysis of the deposited data

How the results depend on the processing

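With ends of 10% on each side, the share of the class in the ends relative to 10 kb loops moved to −2.18 percentage points (exact permutation p = 0.0151) and the difference in span, a description, to −2.11 kb. Leaving out 1 chromosome at a time gave −0.831 to 0.00423 percentage points for the first (without chromosome 6 it turned to 0.00423, exact permutation p = 0.992) and −1.71 to −0.0434 kb for the second. It gave 24.7 to 26.6 percentage points for the difference from longer loops and 4.50 to 5.09 for the log2 density ratio. With all alternatives these ran between 15.8 and 37.1 percentage points and between 3.41 and 5.09. Both kept their direction and their side of the threshold under every alternative run. Counting the same or a neighbouring bin raised shared anchors to 23.2% and side-by-side members to 30.4%. Merging members within 2 bins lowered shared anchors to 5.96% and nested members to 5.89%, and left 2344 loops. Members strictly inside another were 3.87%. Leaving out a replicate was not possible. No paired analysis was possible because the list carries no replicate values. Depth is unknown, so an unlisted loop says nothing about a limit of detection.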

Other observations

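The order of the deposited loop list follows neighbourhood as well as position. Of 9561 neighbouring lines on 1 chromosome, the midpoint moved forward in 90.0%. Midpoints lay within 100 kb of each other in 67.6%, and in 70.7% of the pairs of lines that include a loop of 15 to 40 kb. How the order arose is not stated.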
